A study of Zea mays with 54 samples.

Results

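The YABBY genes described here are yabby15 (LOC542129), yab9 (LOC542130), yab10 (LOC542744) and yab14 (LOC542128), 4 maize genes measured in the shoot apical meristem. They were found by name: a probe was a member if the only gene annotated to it carried one of these names, as array symbol or RefSeq synonym. This gave 12 probes of 49280 on 3 array designs, and all 12 had values, among 37662 probes that did. They are 4 of 859 genes named alone on a probe. yab9, yab10 and yab14 each had 1 probe on every design, annotated to the same cDNA on all 3. yabby15 had 1 probe on slides 7 to 12 and 2 on slides 13 to 18, where probe 1 was annotated to the same cDNA as on slides 7 to 12 and probe 2 to another, and no probe of slides 1 to 6 was named yabby15.

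YABBY proteins are plant transcription factors with a zinc finger and a YABBY domain, which resembles the DNA-binding HMG box. Their transcripts are known from leaf primordia and other lateral organs rather than from the centre of the meristem. In Arabidopsis, members of the family act in the polarity and outgrowth of the leaf blade, and in maize the transcripts of yab9 and yab14 have been reported from the upper side of leaf primordia.

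The L1, a single sheet of outer cells that will form the epidermis, was set against the L2, here the corpus beneath it. Both were cut by laser from sections of vegetative meristems of the inbred line B73, from seedlings 14 days old. Both groups came from 1 genotype with no treatment named, each extract pooled 5 to 10 meristems, and about 1 ng of RNA was amplified. Each of 18 slides carried the L1 and the L2 RNA in different dyes, 6 slides per design, with L1 in Cy5 on 3 of them and in Cy3 on the other 3.

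Each value is a log ratio of the 2 dyes of a slide, averaged over the 3 readings (L, M and H) and turned to read L1 minus L2, so values above 0 mark more transcript in L1. The log base is not stated: 1 log unit is 2-fold at base 2 and 2.72-fold with the natural logarithm. A ratio gives no level of L1 or L2 on its own. Errors are limma standard errors over the 6 slides of a design, and a probe was called at a limma p under 0.05 after Benjamini-Hochberg adjustment over all probes of its design. In tissue samples of this kind, fewer expressing cells and less RNA per cell cannot be told apart. The labels pool meristems but do not say that extracts came from separate sowings, so the p-values measure the spread between these slides.

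Which dye is the numerator is not stated, and Cy5 over Cy3 was read from genes outside the YABBY family, so the direction is likely rather than given. ocl1, a homeobox gene of the outer cell layer family, was then higher in L1 on every slide, at 1.00 ± 0.0740 and 0.90 ± 0.0774 on slides 1 to 6, 0.93 ± 0.0898 on slides 7 to 12 and 1.00 ± 0.0452 on slides 13 to 18. The strongest probe of kn1, the meristem homeobox gene whose transcript is known to be missing from the L1, was lower in L1, at -1.26 ± 0.0926, -1.72 ± 0.0989 and -1.56 ± 0.0996 on the same designs. Over the list of L1 markers, 8 of 12 probes were called higher in L1 and 0 lower. All the called ones were of ocl1, ocl3 or ocl4, genes used to read the direction. The count is therefore no separate support for that direction. cr4, the marker not used for it, was not called (0.14 and -0.11). An ocl3 probe on slides 7 to 12 (-0.15) and an ocl4 probe on slides 1 to 6 (0.18) were not called either. The other kn1 probes were at -0.72 and -0.37 on slides 1 to 6, both called. Another was at -0.27 on slides 7 to 12, and the rest were at -0.26 and 0.02 on slides 13 to 18, none of these called. Were the numerator Cy3, every sign below would turn together. Across probes, r among the readings of 1 slide lay between 0.312 and 0.894. Before turning, slides of like orientation had median correlations of 0.451, 0.269 and 0.271 on the 3 designs, and slides of opposite orientation 0.0265, -0.164 and -0.162, where 3, 7 and 7 of 9 pairs were negative.

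All 12 YABBY probes had a positive mean difference, and 6 of them were called, each on the L1 side. These were 2 of 3 probes on slides 1 to 6, where 1.5% of all probes were called higher in L1. On slides 7 to 12 they were 2 of 4, against 0.89% of all probes, and on slides 13 to 18 they were 2 of 5, against 1.02%. Of the 72 slide values of the family, 70 were above 0. The median difference of all probes was -0.0017, -0.02 and 0.00025 log units on the 3 designs. The 72 values are not independent of each other. Probes of 1 slide share its RNA, and L1 extract numbers 1 to 5 recur on all 3 designs. No slide value lay beyond Dixon's limit for 6 slides.

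**Figure D1:**
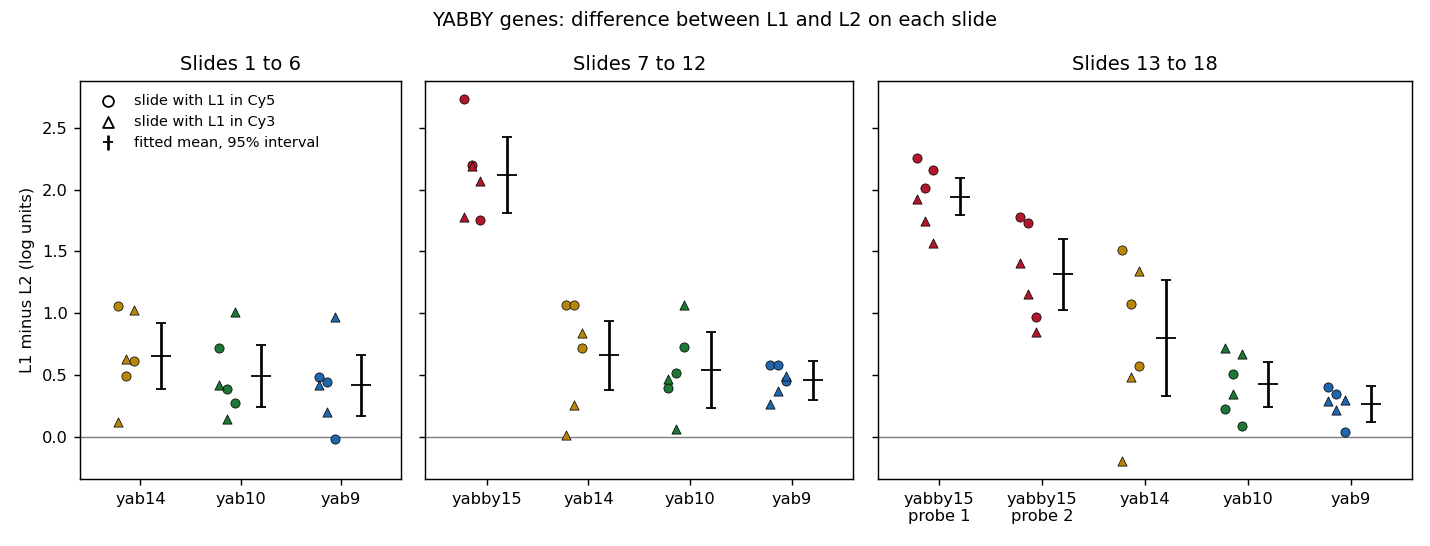
L1 minus L2 in log units on each slide (circles, L1 in Cy5; triangles, L1 in Cy3), with the limma mean and its 95% interval, for each YABBY probe on the 3 array designs. The yabby15 values lie between 0.85 and 2.73, and the only values below 0 are 1 of yab9 (-0.02) and 1 of yab14 (-0.20).

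yabby15 had the widest gap between the layers of the 4 genes. Its lowest, median and highest values on slides 7 to 12 were 1.75, 2.13 and 2.73 log units. All 6 slides stood on the L1 side, and slide 8 was the highest. The mean was 2.12 ± 0.130 (n = 6 slides, limma adjusted p = 0.000602, 95% interval 1.81 to 2.43), a fold of 4.35 if the base is 2 and of 8.34 if it is e. It ranked 13 by difference among 8991 probes.

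On slides 13 to 18, probe 1 of yabby15 had a lowest value of 1.57, a median of 1.97 and a highest value of 2.26 log units. Its mean was 1.94 ± 0.0640 (limma adjusted p = 3.52e-05, n = 6 slides), rank 6 by difference among 14270 probes. Probe 2 lay lower, between 0.85 and 1.78 with a median of 1.28, and its mean was 1.31 ± 0.123 (limma adjusted p = 0.00363, n = 6 slides). Both probes were above 0 on 6 of 6 slides. The probes differed in size: probe 1 exceeded probe 2 on 6 of 6 slides, by 0.29 to 1.19 log units. Their mean gap was 0.63 ± 0.308 (SD, n = 6; two-sided exact sign-flip permutation p = 0.03125, the smallest that 6 slides allow, and 0.0660 after adjustment over 19 pairs of YABBY probes). The calls of all 3 yabby15 probes held without any one slide, with adjusted p up to 0.00809 on slides 7 to 12 and up to 0.000724 and 0.0296 for probes 1 and 2.

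The 3 readings of a slide gave different sizes for the cDNA of probe 1 and much the same size for probe 2. The yabby15 probe of slides 7 to 12 averaged 1.82 in the L reading, 2.23 in M and 2.32 in H. For probe 1 on slides 13 to 18 the means were 1.53 in L, 2.10 in M and 2.20 in H. Slide 14 spread the most, with 1.05, 2.40 and 3.32 in the order L, M and H. Probe 2 averaged 1.30, 1.33 and 1.31 in the same order. The mean range of the readings within a slide was 0.779 for probe 1, above that of 95.4% of all probes of slides 13 to 18, and 0.142 for probe 2, where the median over all probes was 0.176. Among all called probes of the 3 designs, H was larger in size than L on 12.5%, 84.5% and 68.3%, with a median ratio of H to L of 0.856, 1.12 and 1.07. In the L reading alone the 2 probes of slides 13 to 18 stood at 1.53 and 1.30, nearer to each other than in H.

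**Figure D2:**
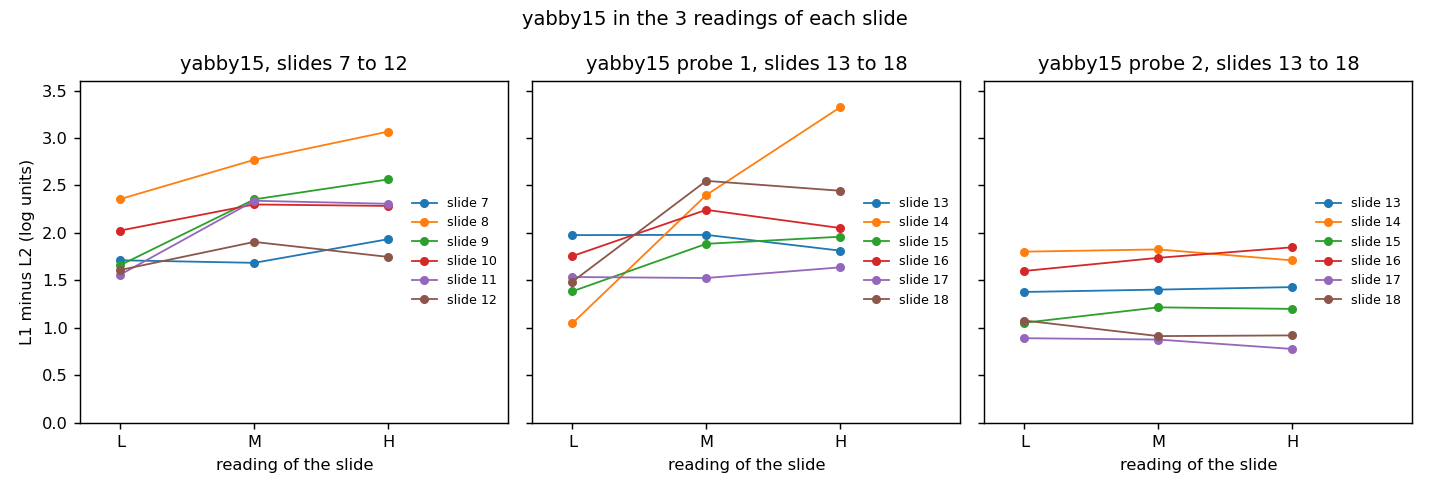
yabby15 in the L, M and H readings of each slide, in log units of L1 minus L2, with 1 line per slide. Probe 1 on slide 14 runs between 1.05 and 3.32, whereas the lines of probe 2 are nearly flat and end between 0.78 and 1.85.

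yab14 was the highest of the 3 genes measured on slides 1 to 6 and came after yabby15 on the other designs, and its slides spread the most of the 4 genes. On slides 1 to 6 it had a lowest value of 0.12, a median of 0.62 and a highest value of 1.06 log units. All 6 slides were above 0, and slides 2 and 5 were the highest. The mean was 0.66 ± 0.119 (limma adjusted p = 0.0158, n = 6 slides). This call ended without slide 2 (0.57, adjusted p = 0.0802), slide 3 (0.65, adjusted p = 0.0726) or slide 5 (0.55, adjusted p = 0.0593). It also ended without slides 1 and 5 together (0.67, adjusted p = 0.132).

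The yab14 probe of slides 7 to 12 had a lowest value of 0.02, a median of 0.78 and a highest value of 1.07, all 6 above 0. The mean of 0.66 ± 0.118 was not called (limma adjusted p = 0.0521, n = 6 slides). On slide 11 the H reading of yab14 was 1.76, against 0.45 in L and 0.31 in M. With the median of the readings the mean was 0.61 and passed the threshold (limma adjusted p = 0.0236, n = 6 slides). The slides with L1 in Cy5 averaged 0.95 there and those with L1 in Cy3 averaged 0.37. The dye term was not called (limma adjusted p = 0.614), and only 1 of 8991 probes of this design had it called. The probe of slides 13 to 18 had a lowest value of -0.20, a median of 0.82 and a highest value of 1.51, with 5 of 6 slides above 0. Its mean, 0.80 ± 0.199, was not called (limma adjusted p = 0.135, n = 6 slides), and the standard deviation over slides, 0.635, was above that of 97.8% of all probes of the design.

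yab10 was above 0 on all 18 slides. The 18 annotated cDNAs with a single probe of that cDNA on each design include yab9, yab10 and yab14. Of these cDNAs, 2 (11.1%) were above 0 on all 18 slides, and yab10 is 1 of the 2. The 18 slides are not all separate RNAs, since L1 extract numbers 1 to 5 recur on all 3 designs. Slides 1 to 6 gave a lowest value of 0.15, a median of 0.40 and a highest value of 1.01, the last on slide 5. The mean was 0.49 ± 0.113 (limma adjusted p = 0.0490, n = 6 slides), just inside the threshold. This call held without slide 3 (adjusted p = 0.0446) and ended without slide 1, 2, 4, 5 or 6 (0.125, 0.207, 0.0915, 0.137 and 0.0522 as adjusted p). Without slides 1 and 5 together the mean was 0.30. Slides 7 to 12 gave a lowest value of 0.06, a median of 0.49 and a highest value of 1.07. Slides 13 to 18 gave 0.09, 0.43 and 0.72 for the same quantities. Neither mean was called (0.54 ± 0.130, limma adjusted p = 0.133, and 0.43 ± 0.0775, limma adjusted p = 0.0511, n = 6 slides each).

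yab9 had the smallest difference of the 4 genes on each design. Its lowest, median and highest values on slides 7 to 12 were 0.26, 0.47 and 0.58, and the standard deviation of 0.124 was above that of only 10.5% of probes of the design. The mean of 0.46 ± 0.0661 was called (limma adjusted p = 0.0264, n = 6 slides), and leaving out whichever slide ended the call (adjusted p between 0.0706 and 0.130). On slides 1 to 6 the values ran between -0.02 on slide 6 and 0.97 on slide 5, with a median of 0.43. The mean of 0.42 ± 0.111 was not called (limma adjusted p = 0.0924, n = 6 slides). It was called without slide 6 (0.50, adjusted p = 0.0495) and not without slide 1, 2, 3, 4 or 5 (adjusted p between 0.0912 and 0.296). Without slides 1 and 5 together the mean was 0.25. Slides 1 and 2 share an L2 number, as do slides 5 and 6. With the L2 extract as a random block yab9 was called too (0.42, limma adjusted p = 0.0418), so that all 3 YABBY probes of slides 1 to 6 were. That block was fitted to the ratios before turning, and the dyes of the slides in each such pair are opposite. A shared L2 then enters with opposite signs, whereas the fit used 1 positive correlation (0.208). The added yab9 call therefore does not allow for the shared L2. The values of slides 13 to 18 ran between 0.04 on slide 18 and 0.41, with a median of 0.29. The mean of 0.27 ± 0.0623 was not called (limma adjusted p = 0.113, n = 6 slides) and was called without slide 18 (0.32, adjusted p = 0.0320).

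With 6 slides, the two-sided exact sign-flip test over the slides of a design can go no lower than 0.03125. Values above 0 on all 6 slides gave that p for 10 of the 12 probes. The exceptions were yab9 on slides 1 to 6 and yab14 on slides 13 to 18, each above 0 on 5 slides (exact p = 0.0625). Of all probes, 3.25% were above 0 on every slide of slides 1 to 6, 3.59% on slides 7 to 12 and 4.49% on slides 13 to 18. The dye term was called for none of the 12 probes (limma adjusted p between 0.548 and 0.998). Among all probes it was called for 415 of 14401, 1 of 8991 and 0 of 14270 on the 3 designs. On slides 7 to 18 the lack of a call thus does not set the YABBY probes apart. The unadjusted limma p of the dye term was under 0.05 for yab14 on slides 7 to 12 (0.0434) and for yabby15 probe 1 (0.0162). The means of that yabby15 probe were 2.14 on slides with L1 in Cy5 and 1.74 on those with L1 in Cy3.

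**Figure D3:**
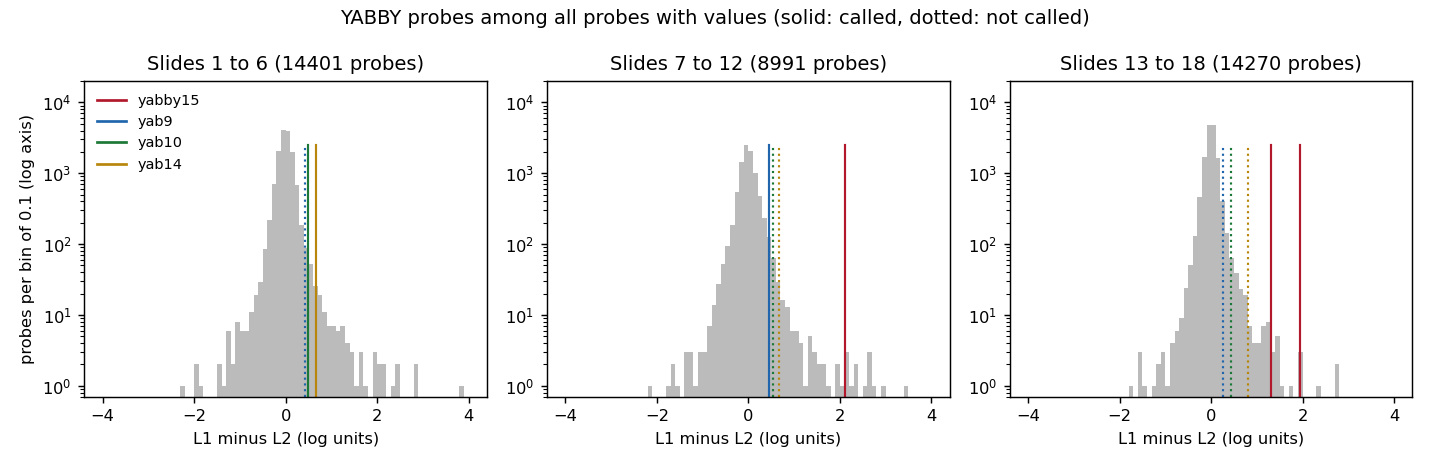
Histograms of the mean L1 minus L2 difference, in log units, of all probes with values on each design (count on a log axis), with the YABBY probes as vertical lines, solid where called and dotted where not. yabby15 sits in the far right tail at 2.12, 1.94 and 1.31, and the other 3 genes lie on the right shoulder between 0.27 and 0.80.

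The means stood in 1 order on all designs, yabby15 where it was measured, then yab14, yab10 and yab9. yabby15 exceeded yab14 on slides 7 to 12, with 6 of 6 slides higher, by a mean of 1.46 ± 0.375 log units (SD, n = 6; exact sign-flip p = 0.03125). It exceeded yab10 by 1.58 ± 0.566 and yab9 by 1.66 ± 0.292, again on every slide. On slides 13 to 18, probe 2 of yabby15 exceeded yab14 on 5 of 6 slides only (0.52 ± 0.681, exact p = 0.125, n = 6). Between neighbours among the other 3 genes, yab10 and yab14 differed by -0.16 ± 0.284, -0.12 ± 0.437 and -0.37 ± 0.732 on the 3 designs (yab10 minus yab14, SD, n = 6; exact p = 0.156, 0.563 and 0.281). yab9 and yab10 differed by -0.08 ± 0.151, -0.08 ± 0.328 and -0.16 ± 0.223 (yab9 minus yab10, SD, n = 6; exact p = 0.406, 0.594 and 0.188). There were 19 such pairs of probes, and after Benjamini-Hochberg adjustment over them the smallest exact p became 0.0660, so no pair passed. Spots of different cDNAs need not respond alike to a given change, and hybridisation with transcripts of related genes was not tested.

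The labels number the extracts, and L1 numbers 1 to 5 recur on all 3 designs, so the same cDNA was read against like-numbered RNA more than once. yab14 had the largest spread between extracts relative to that over designs. Extract 1 gave the lowest yab14 value on each design, 0.12 on slide 1, 0.02 on slide 7 and -0.20 on slide 13. Extract 2 gave 1.06, 1.07 and 1.51 on slides 2, 8 and 14. The means over designs ran between -0.02 for extract 1 and 1.21 for extract 2, with a standard deviation between the 5 extract means of 0.494 and of 0.259 within an extract over designs. On slide 1 the L2 number (2) differed from the L1 number.

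The yab10 mean over designs was lowest in extract 3 among these 5, at 0.18 (0.15, 0.06 and 0.35 on slides 3, 9 and 15), and highest in extract 5, at 0.80. On slides 13 to 18, extract 2 was lower (0.22 on slide 14) than extract 3. Its standard deviation was 0.221 between extract means and 0.172 within extracts. For yab9 the standard deviation was 0.127 between and 0.180 within, so the spread over designs was the larger. yabby15, with 2 designs, ranged between 1.66 for extract 5 and 2.49 for extract 2 (0.314 between, 0.228 within). Over the 18 annotated cDNAs with a single probe of that cDNA on each design, the median ratio of the 2 spreads was 0.812, against 1.91 for yab14, 1.29 for yab10 and 0.708 for yab9. These 3 genes are themselves among the 18. The designs lie in separate tables, and these values are a description with no test. Extracts with odd and even numbers mostly differ in dye orientation as well, which cannot be told apart from the extract except for number 5.

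Extract 5 was hybridised with L1 in Cy5 on slide 12 and with L1 in Cy3 on slide 17, with the same L2 number on both. There yabby15 read 1.75 and 1.57, yab10 0.73 and 0.67, yab9 0.46 and 0.30, and yab14 0.72 and 1.35. All 4 genes stood on the L1 side in both dye orientations of that pair of extracts. On slide 5 the same L1 number met L2 number 6, and both yab9 (0.97) and yab10 (1.01) had their highest value of slides 1 to 6 there, while slide 6, with the same L2 number, gave -0.02 and 0.27.

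**Figure D4:**
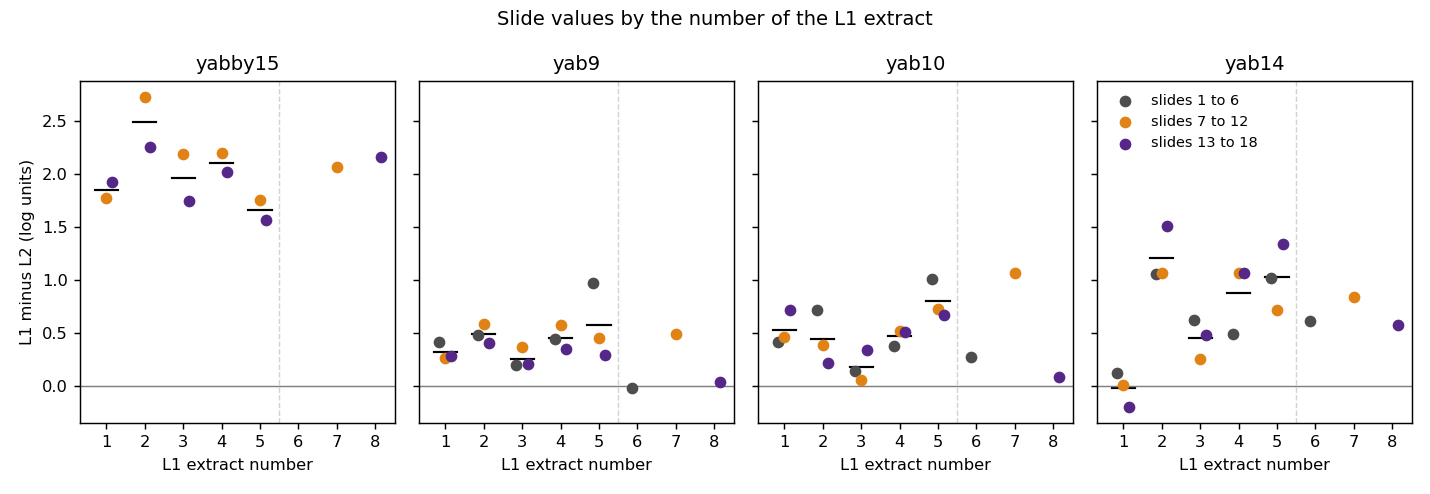
Slide values of each YABBY gene in log units of L1 minus L2 by the number of the L1 extract, coloured by array design, with the mean of extracts 1 to 5 as a black line (for yabby15 the cDNA of probe 1). Extract 1 is lowest for yab14 on all 3 designs, at 0.12, 0.02 and -0.20, and extract 2 has the highest yab14 mean, 1.21.

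Of the other leaf patterning genes, lg2 and ns1 had a called probe. RefSeq lists 8 maize genes with a YAB, ZYB or DRL name, and the other 4 had no probe named here. Of the leaf patterning list, the 3 designs in turn had 1 of 15, 0 of 6 and 1 of 13 probes called higher in L1, where 1.5%, 0.89% and 1.02% of all probes were, and 0 called lower. At an unadjusted limma p under 0.05 there were 4 of 15, 4 of 6 and 4 of 13, against 2133 of 14401, 1245 of 8991 and 1834 of 14270 among all probes. The 4 on slides 7 to 12, where none was called, were ig1 (0.71), ns2 (0.34) and rld2 (0.34) on the L1 side and fea2 (-0.20) on the L2 side, named here after their values were seen. The medians of the list were -0.04, 0.11 and 0.07 log units, against 0.49, 0.60 and 0.80 for the YABBY probes and -0.0017, -0.02 and 0.00025 for all probes.

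The calls were lg2, a bZIP factor needed for the ligule, at 0.46 ± 0.0793 (limma adjusted p = 0.0122, n = 6 slides; ended without slide 2 or 5, up to 0.0556), and ns1, a WOX homeobox gene of the leaf margin, at 0.54 ± 0.0881 on 1 of 2 probes (limma adjusted p = 0.0363, n = 6 slides; ended without any one slide, up to 0.155). Its duplicate ns2 was at 0.52, 0.34 and 0.24 and was not called. rld1, an HD-ZIPIII factor of the upper leaf side, had 9 probes between -0.21 and 0.38, none called. rs2, a MYB factor of leaf primordia that keeps knox genes off, was on the L2 side at -0.36, -0.20 and -0.32 and was not called. Over the leaf primordium markers (rs2, ns1, ns2, lg2 and rld1, with lg1 not among the named probes with values), 2 of 18 probes were called higher in L1 and 0 lower. Cells of leaf primordia are where YABBY transcripts are known, and the part such cells could have in the YABBY differences was not tested.

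Among the listed knox genes, kn1 lay opposite to the YABBY genes and knox8 on the same side. kn1 was called lower in L1 on 3 of 3, 1 of 2 and 1 of 3 probes of the designs, where 1.34%, 0.545% and 0.554% of all probes were. It was used to read the direction, so these calls are no separate support for that direction. The weakest called kn1 probe (-0.37, slides 1 to 6) lost its call without slide 1, 2, 3, 4 or 5 (limma adjusted p up to 0.118). knox8 was at 0.78 ± 0.135 and 0.58 ± 0.125 on slides 7 to 12 (limma adjusted p = 0.0483 and 0.0943, n = 6 slides) and at 0.59 ± 0.104 and 0.55 ± 0.0920 on slides 13 to 18 (limma adjusted p = 0.0451 and 0.0398, n = 6 slides). Leaving out 1 slide ended the knox8 call of slides 7 to 12 whichever slide it was (limma adjusted p up to 0.154), and slide 13, 14, 15, 16 or 17 ended those of slides 13 to 18 (up to 0.193). knox3, knox7 and lg3 lay between -0.14 and 0.29 and were not called. On slides 13 to 18 the 2 knox8 probes were above yab10 (0.43) and below yab14 (0.80).

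**Figure D5:**
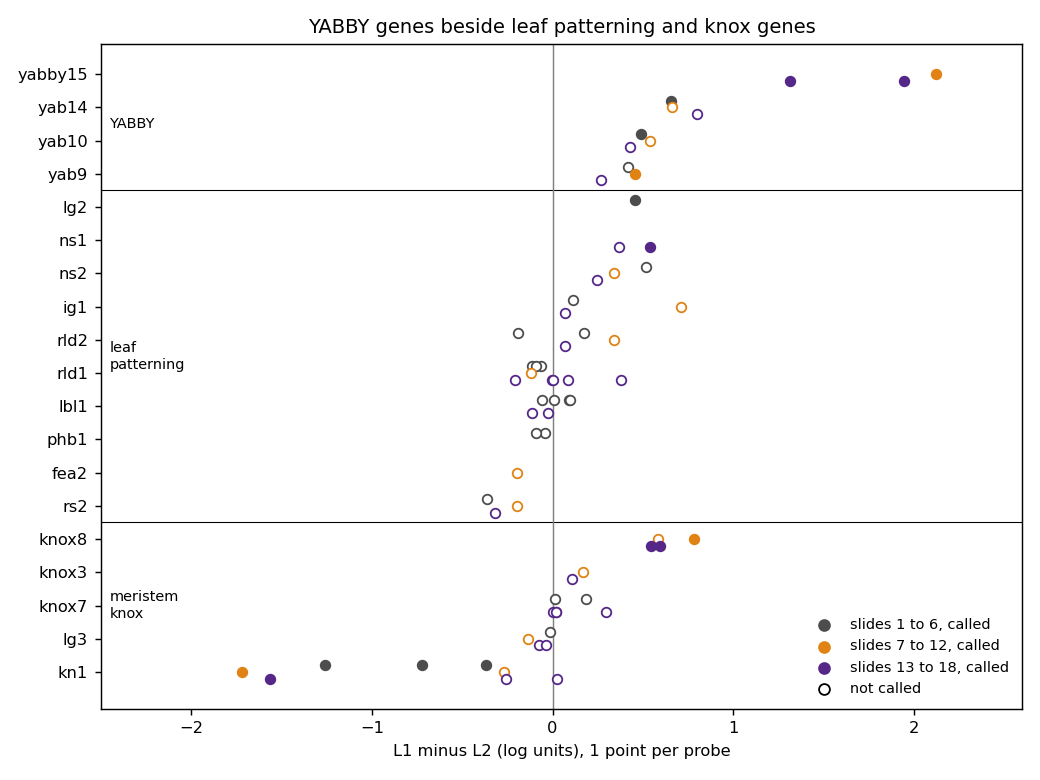
L1 minus L2 in log units of each probe of the YABBY, leaf patterning and knox genes, coloured by array design, filled where called. The 12 YABBY probes all lie right of 0, the rs2 probes left of it (-0.36 to -0.20), and kn1 reaches -1.72.

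The genes whose slide values were nearest to each YABBY gene were found by the root mean square difference over the 6 slides, among probes with a single annotated gene (1690, 662 and 1090 on the 3 designs). For yabby15 the nearest were ocl4 on slides 7 to 12, at a distance of 0.795 log units, followed by an EF1-A probe (1.04) and prp2 (1.18). Their mean differences were 2.65, 1.37 and 1.02, against 2.12 for yabby15. For probe 1 on slides 13 to 18 they were an EF1-A probe (0.767), the MADS-box gene zmm31 (0.901) and ocl1 (0.967). Their mean differences were 1.34, 1.13 and 1.00, against 1.94 for probe 1. Probe 2 was not compared in this way, since only the yabby15 probe with the larger difference was used.

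Nearer profiles were found for the genes with smaller differences. More probes lie near such values, so the distances do not compare likeness from 1 YABBY gene to another. yab9 was closest to nfd101 (0.139), LOC541999 (0.187) and PPCK1 (0.196) on slides 1 to 6. On slides 7 to 12 its nearest genes were ESMT1 (0.172), MEI2-like (0.193) and ns2 (0.202), and on slides 13 to 18 zmm16 (0.0793), nfd101 (0.0912) and nfd106 (0.130). nfd101, at means of 0.38 and 0.28, was near yab9 on both slides 1 to 6 and slides 13 to 18.

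yab10 was closest to LOC541999 (0.183), lg2 (0.228) and nfd101 (0.235) on slides 1 to 6. The next designs gave ns2 (0.254), aoc1 (0.286) and rld2 (0.291), and PLTP (0.230), ocl3 (0.252) and GRF13 (0.252). yab14 had an EF1-A probe (0.237), lim1 (0.318) and lg2 (0.357) as its nearest on slides 1 to 6. Those on slides 7 to 12 were gln5 (0.283), EXPB1B (0.313) and PEAMT (0.423), and those on slides 13 to 18 were fps1 (0.591), an EF1-A probe (0.606) and ocl1 (0.610). A profile of 6 slides fixes such a likeness only loosely, and it says nothing of shared function.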

How the data were processed

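Log ratios of 2-colour spotted cDNA arrays were analysed as the authors deposited them, in 54 columns: 18 slides with 3 readings (L, M and H) each. What the readings are, the log base, the numerator and the authors' normalisation are not stated by labels or headers, and the unit was treated as an unspecified log scale. The slide pairing and the dyes are per the labels. Readings were averaged per slide and turned by dye orientation, and each design was fitted alone with limma 3.58.1 in R 4.3.3 (layer and dye terms, 4 residual degrees of freedom, Benjamini-Hochberg adjustment over all probes with values, threshold 0.05). Each probe had values in all columns of its design or in none. The fit was tested on simulated data.

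Members and lists were chosen with earlier results of these data known. Named were every member probe, listed genes called on any design, the direction genes, and the 3 genes nearest to each member. Genes named besides these (ns2, rld1, rld2, rs2, ig1, fea2, knox3, knox7, lg3, cr4) are listed genes or markers that were not called. Symbols came from the platform annotation and RefSeq (Zm-B73-REFERENCE-NAM-5.0, names only). The arrays' number limits the precision. Alternatives were other readings, scalings, weights, left-out slides, the slide as a block for readings and, on slides 1 to 6, the L2 extract number as a random block, since slides 1 and 2 and slides 5 and 6 share one. The L2 block was fitted to values before turning.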

Additional observations from a re-analysis of the deposited data

How the results depend on the processing

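No YABBY probe changed direction under any alternative. The 3 yabby15 probes were called in every alternative limma fit, and their exact sign-flip p, which makes no call, was 0.03125. In the fit of 1 mean per gene, probes 1 and 2 of slides 13 to 18 were averaged (1.63) and not tested apart. The number of all probes called on slides 1 to 6 (409) was 261 with the L reading, 258 with no dye term, 669 with slide weights, 993 with the 18 readings and a slide block, and 78 without slides 1 and 5 together, and 211 to 417 with 1 slide left out. With the L2 extract as a random block it was 577, and 3 YABBY probes were called. That fit does not allow for the shared L2, whose sign before turning is opposite on the slides that share it. On slides 7 to 12 (129) it was 82 with L, 76 with H, 80 with slides scaled to 1 median absolute deviation, and 649 with the slide block, and 38 to 65 with 1 slide left out. On slides 13 to 18 (224) it was 79 with L, 625 with slide weights and 984 with the slide block, and 88 to 231 with 1 slide left out. YABBY probes called on slides 1 to 6 (2) were 1 with L, with H, with no dye term and with 1 mean per gene, 0 without slides 1 and 5 together, and 0 to 2 with 1 slide left out. On slides 7 to 12 (2) they were 1 with any 1 slide left out, and on slides 13 to 18 (2) they were 5 with slide weights and with the slide block. The slide block counts readings of a slide as values (16 residual degrees of freedom), and readings are not replicates. A filter on missing values left every value as it was, since each probe had values in all columns of its design or in none. No further pairing was added, because each value is already an L1 against L2 ratio of 1 slide, so the tests are paired by slide. The causes of these differences were not tested. The files give no spot intensities, so signal over background is not known here, and ratios of dim spots could not be told from those of bright ones.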
